A study of Mus musculus with 8 samples.

Results

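Long noncoding RNAs that stay in the nucleus make up a large part of the RNA captured from isolated nuclei. 7 of them were chosen by gene symbol for a description across cell types, libraries and nuclei of different depth: Malat1, Meg3, Miat, Snhg11, Rian, Mirg and Neat1. 6 of the 7 were among the genes counted, each under 1 gene identifier, and Rian was not analysed here. Together the 6 took between 8.06% and 11.6% of the UMIs of a library. A UMI, or unique molecular identifier, marks 1 captured RNA molecule.

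Nuclei from mouse hippocampus had been sequenced on the 10X Genomics platform, with 1 library for each of 8 mice on the C57BL/6 strain. There were 3 WT mice and 3 GKO mice at 7 mo of age, and 1 J20;WT and 1 J20;GKO mouse at 6 mo. GKO mice lack part of Gsap, the gene for γ-secretase activating protein, in all cells, because a deletion between loxP sites was made with CMV-Cre. J20 mice carry a human APP transgene with familial Alzheimer's disease mutations under the PDGFB promoter, so that J20;WT and J20;GKO differ in Gsap and share the transgene. The comparison of GKO with WT asks which transcripts depend on Gsap in each cell type, and the J20 mice ask the same in the presence of mutant APP. With 1 mouse each, the J20 groups entered no test between groups.

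After nuclei with over 5.0% mitochondrial UMIs, under 200 genes or over 7500 genes were left out, 32041 of 33314 nuclei were kept, with 243887863 UMIs. The WT libraries held 43310978, 31589339 and 21977855 UMIs in 5252, 4605 and 2953 nuclei. The libraries labelled GKO held 31395024, 34568065 and 37565448 UMIs in 3713, 4736 and 4716 nuclei. The J20;WT library held 21020159 UMIs in 3335 nuclei and the J20;GKO library 22460995 in 2731. The median nucleus had between 4579 UMIs in WT 1 and 6438.5 in GKO 3. Over the 28 pairs of libraries, between 2 and 21 cell barcodes were shared by a pair.

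Libraries stood apart in ways that the groups do not give. Xist, the RNA that coats the inactive X chromosome of female cells, was at 2259 CPM (counts scaled to 1e6 per library) in WT 1, 2135 in GKO 1 and 2410 in J20;GKO, and between 1.68 and 3.00 in the other 5 libraries. The Y-linked gene Uty was at 1.94, 1.66 and 0.979 CPM in those 3 libraries and between 96.4 and 112 in the other 5. The labels give no sex. WT 1 and GKO 1 also share an earlier date carried by the deposited data, here called batch A. The other WT and GKO libraries and J20;GKO share another date, batch B, and J20;WT has a date of its own. Among WT and GKO libraries, batch A and a high Xist level therefore cannot be told apart, and each group had 1 such library. The J20;GKO library was high in Xist and belongs to batch B.

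Gsap itself was counted at 22.5, 23.0 and 22.3 CPM in the WT libraries, at 19.8, 21.8 and 22.0 CPM in the libraries labelled GKO, and for J20;WT and J20;GKO at 19.9 and 21.1 CPM. The WT values lay just above the GKO values, and their 95% Poisson intervals overlapped, with 20.4 to 24.4 CPM for WT 3 and 18.3 to 21.4 CPM for GKO 1. The log2 fold change over all nuclei was -0.07 ± 0.09 (SE, adjusted p = 1.00, edgeR quasi-likelihood test with Benjamini-Hochberg adjustment). UMIs from outside the deleted part of the gene are counted too, so this level does not check the labels. The wording "libraries labelled GKO" is used for that reason.

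Malat1, Neat1, Meg3, Mirg, Miat and Snhg11 act in different places of the nucleus. Malat1 is held in nuclear speckles, bodies rich in splicing factors, and Neat1 is the scaffold of paraspeckles, which form beside them. Meg3, Rian and Mirg are transcribed from the maternal chromosome of the imprinted Dlk1-Dio3 domain, and Rian and Mirg host many small nucleolar RNAs and microRNAs. Miat, also called Gomafu, forms its own spots in the nuclei of neurons and binds splicing factors, and Snhg11 is the host gene of small nucleolar RNAs.

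Each nucleus was assigned to a cell type by the summed UMIs of marker genes, none of which was a lncRNA described here. The 6 main gates held 14685 excitatory neurons, 1040 inhibitory neurons, 2739 astrocytes, 7056 oligodendrocytes, 1086 oligodendrocyte progenitor cells (OPCs) and 2064 microglia, together 89.5% of nuclei. 2840 nuclei (8.86%) were not gated, 1362 of them because they passed no threshold. The other 1478 passed a threshold but lacked a ratio of 2 to the next class, or had fewer than 2 markers detected. No doublet caller was run. Nuclei with markers of 2 classes were left out only through this ratio, so some that passed 2 thresholds can remain in a gate. The gates were ranges of a score: 13.6% of nuclei in the inhibitory gate lay near its threshold, 2.17% in the excitatory, 0.645% in the OPC, 0.621% in the astrocyte, 0.194% in the microglia and 0.0709% in the oligodendrocyte gate. Median marker UMIs per 10000 in the inhibitory gate were 33.4 for its own markers, 6.64 for excitatory markers and 1.11 for astrocyte markers. In the excitatory gate they were 43.1 for its own, 4.41 for astrocyte and 2.23 for oligodendrocyte markers, and 0 for inhibitory markers. The gates differed in depth, with medians of 10007 UMIs per nucleus in excitatory and 10434.5 in inhibitory neurons, 3696 in astrocytes, 2200 in oligodendrocytes, 4314.5 in OPCs and 1945.5 in microglia.

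Malat1 and Neat1 lie next to each other on chromosome 19, on the same strand. In the GENCODE M21 annotation of GRCm38, Malat1 (ENSMUSG00000092341) is a long intergenic RNA at chr19:5795690-5802672 on the minus strand, and Neat1 (ENSMUSG00000092274) is one at chr19:5824708-5845478 on the same strand. Malat1 and the long form of Neat1 are known to lack an ordinary poly(A) tail at the mature end, while the short form of Neat1 has one. RNase P cuts the first 2, and U-rich stretches fold with an A-rich stretch at the end into a triple helix that protects it. Malat1-201 and the long Neat1-201 hold these stretches in GENCODE, and the shorter Neat1-202, of 3004 bases, does not hold the shared run. They are shown as a sequence feature the 2 RNAs share. Malat1-201 is 6983 bases long and its bases 6634 to 6753 lie at chr19:5795920-5796039. Neat1-201 is 20771 bases long and its last bases, 20712 to 20771, lie at chr19:5824708-5824767. Capitals mark 2 runs of letters that both transcripts hold, 16 and 11 bases long:
Malat1-201: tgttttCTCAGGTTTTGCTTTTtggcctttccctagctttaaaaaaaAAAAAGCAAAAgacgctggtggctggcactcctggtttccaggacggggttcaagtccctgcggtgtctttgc
Neat1-201: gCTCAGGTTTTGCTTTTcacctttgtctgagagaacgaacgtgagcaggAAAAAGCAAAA
The run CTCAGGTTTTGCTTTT was found in 2 of the 141767 annotated transcripts (0.00141%), these 2, and AAAAAGCAAAA in 618 (0.436%). The part of Malat1-201 after the A-rich stretch gives a small RNA shaped like a transfer RNA. The annotation also places Gm37376 over 453 bases of Malat1 on the opposite strand, and it was not analysed here. The sources used here do not say whether counting used strand.

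Malat1 took 8.10% of all UMIs, the largest share of any gene before any correction for gene length. Among the 6 main gates its share was highest in oligodendrocytes and astrocytes and lowest in microglia. In oligodendrocytes it was 10.5%, 12.1% and 11.2% in the WT libraries, 9.87%, 11.8% and 12.1% in the libraries labelled GKO, 9.39% in J20;WT and 12.7% in J20;GKO. In excitatory neurons it was 6.74%, 9.88% and 8.32% in WT, 7.00%, 8.28% and 7.83% in GKO, 6.24% in J20;WT and 9.01% in J20;GKO. In these 2 gates the WT and GKO values overlapped, and WT 1, GKO 1 and J20;WT were the lowest 3 libraries. Means over the 8 libraries were 11.2% ± 1.16 (SD) in oligodendrocytes, 11.1% ± 1.08 in astrocytes, 7.91% ± 1.22 in excitatory neurons, 6.89% ± 1.19 in OPCs, 6.88% ± 1.20 in inhibitory neurons and 4.53% ± 0.569 in microglia. Astrocytes were above excitatory neurons by 3.22 ± 0.889 percentage points in 8 of 8 libraries (exact sign-flip permutation test, 2-sided p = 0.00781, adjusted p = 0.0138 over 30 such comparisons). Microglia were below inhibitory neurons by 2.35 ± 0.844 points in 8 of 8 libraries (exact p = 0.00781, adjusted p = 0.0138). Oligodendrocytes and astrocytes did not differ beyond their spread (exact p = 0.945), nor did OPCs and inhibitory neurons (exact p = 0.930). An exact test of 8 pairs cannot go below 0.00781.

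Neat1 was an RNA of oligodendrocytes in this tissue. Its share there was 0.111%, 0.181% and 0.208% in the WT libraries, 0.119%, 0.203% and 0.210% in the libraries labelled GKO, 0.226% in J20;WT and 0.133% in J20;GKO. WT 1 and GKO 1, the libraries of batch A, were lowest in their groups, and the values of the groups overlapped. Means over 8 libraries were 0.174% ± 0.0458 in oligodendrocytes, 0.0230% ± 0.00393 in astrocytes and 0.00879% ± 0.00153 in microglia. They were 0.00231% in OPCs, 0.00226% in excitatory and 0.00127% in inhibitory neurons. Oligodendrocytes were above astrocytes by 0.151 ± 0.0439 points, and astrocytes above microglia by 0.0142 ± 0.00358 points, each in 8 of 8 libraries (exact sign-flip p = 0.00781, adjusted p = 0.0138). OPCs and excitatory neurons did not differ beyond their spread (exact p = 0.898). On CPM, excitatory neurons had 1.39% of the oligodendrocyte level of Neat1. In astrocytes it was at 13.9% of that level and in microglia at 5.39%. How much of the counts outside oligodendrocytes came from free RNA in the droplets was not tested.

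Meg3 and Snhg11 were RNAs of neurons. Meg3 (ENSMUSG00000021268) is annotated as a long intergenic RNA at chr12:109541001-109571726 on the plus strand and contains 2 microRNA genes. Of its 2 promoter windows of 300 bases, the one at the start of the gene is shown because the levels of Meg3 and of its downstream neighbours are described together. The sequence is RefSeq's, at chr12:109540746-109541045 on the plus strand of GRCm38.p6:
Meg3 promoter: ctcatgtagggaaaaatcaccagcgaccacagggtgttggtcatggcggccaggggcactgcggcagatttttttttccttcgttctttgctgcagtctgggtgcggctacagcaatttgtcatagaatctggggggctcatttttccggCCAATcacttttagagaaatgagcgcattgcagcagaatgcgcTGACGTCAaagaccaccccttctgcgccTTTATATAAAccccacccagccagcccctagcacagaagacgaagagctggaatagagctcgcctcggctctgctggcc
Capitals mark letter matches on either strand to the cyclic AMP response element (TGACGTCA), the TATA box (TATAAA, 2 matches that overlap each other) and the CCAAT box (CCAAT). These letters stood in 1.79%, 13.6% and 37.4% of the 32851 promoters of the same length. A GC box (GGGCGG), found in 35.7% of promoters, was not in this window. The promoter table matched 6 of the 7 symbols, without Neat1. The promoter of Snhg11 (chr2:158375463-158375762, plus strand) and that of Malat1 held none of the 4 motifs. A match is a string of letters, and binding was not tested.

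In excitatory neurons Meg3 took 0.824%, 1.05% and 1.03% of UMIs in the WT libraries, 0.795%, 1.02% and 1.21% in the libraries labelled GKO, 1.10% in J20;WT and 1.19% in J20;GKO. In inhibitory neurons it took 1.47%, 1.84% and 2.04% in WT, 1.54%, 1.89% and 2.04% in GKO, 1.96% in J20;WT and 1.73% in J20;GKO. Every library was higher in inhibitory than in excitatory neurons, the batch A libraries were lowest in both gates, and WT and GKO overlapped. The mean difference of the 2 gates was 0.784 ± 0.143 points (n = 8, exact sign-flip p = 0.00781, adjusted p = 0.0138). Glia were far lower, with means of 0.108% in OPCs, 0.0516% in oligodendrocytes, 0.0489% in microglia and 0.0369% in astrocytes. OPCs were above oligodendrocytes in 8 of 8 libraries (exact p = 0.00781, adjusted p = 0.0138), while oligodendrocytes and microglia did not differ beyond their spread (exact p = 0.898).

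Snhg11 (ENSMUSG00000044349, chr2:158375638-158386145, plus strand) is annotated as protein coding and contains 2 small nucleolar RNA genes. Its share in excitatory neurons was 0.616%, 0.772% and 0.687% in WT, 0.573%, 0.810% and 0.823% in GKO, and 0.620% and 0.844% in the J20;WT and J20;GKO mouse. The lowest 3 libraries were GKO 1, WT 1 and J20;WT, the same 3 as for Malat1, and the groups overlapped. The mean was 0.718% ± 0.107 in excitatory and 1.48% ± 0.227 in inhibitory neurons, a difference of 0.765 ± 0.160 points in 8 of 8 libraries (exact sign-flip p = 0.00781, adjusted p = 0.0138). Glial means ranged from 0.0352% in astrocytes to 0.0618% in OPCs.

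Mirg is the host of a microRNA cluster downstream of Meg3. The gene (ENSMUSG00000097391) is at chr12:109729764-109749460 on the plus strand, with 14 microRNA genes on that strand. In inhibitory neurons its share was 0.0267%, 0.0232% and 0.0232% in WT, 0.0270%, 0.0303% and 0.0237% in GKO, 0.0236% in J20;WT and 0.0193% in J20;GKO. J20;GKO was the lowest library and WT and GKO overlapped. The mean was 0.0246% ± 0.00332 in inhibitory, 0.0118% ± 0.000903 in excitatory neurons and 0.00163% ± 0.000660 in OPCs, and the remaining 3 gates lay between 0.000415% and 0.000611%. Inhibitory neurons were above excitatory neurons in 8 of 8 libraries (exact sign-flip p = 0.00781, adjusted p = 0.0138).

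Miat had another order of cell types. The gene (ENSMUSG00000097767) is at chr5:112213228-112229395 on the minus strand, and Gm26953 overlaps 13935 bases of it on the opposite strand. Its share in excitatory neurons was 0.0344%, 0.0349% and 0.0371% in WT, 0.0331%, 0.0343% and 0.0359% in GKO, 0.0371% in J20;WT and 0.0327% in J20;GKO. These values lay close together, and WT and GKO overlapped. Over the 8 libraries the excitatory gate had a mean of 0.0349% ± 0.00165, the inhibitory gate 0.0160% ± 0.00160 and OPCs 0.00733% ± 0.00115, and between 0.00253% and 0.00303% in the other 3 gates. Excitatory neurons were above inhibitory neurons by 0.0189 ± 0.00180 points in 8 of 8 libraries (exact sign-flip p = 0.00781, adjusted p = 0.0138), the reverse of Meg3, Snhg11 and Mirg. Microglia, oligodendrocytes and astrocytes did not differ beyond their spread as neighbours in this order (exact p = 0.852 and 0.172). In all, 21 of the 30 comparisons of neighbours passed an adjusted p of 0.05.

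**Figure D1:**
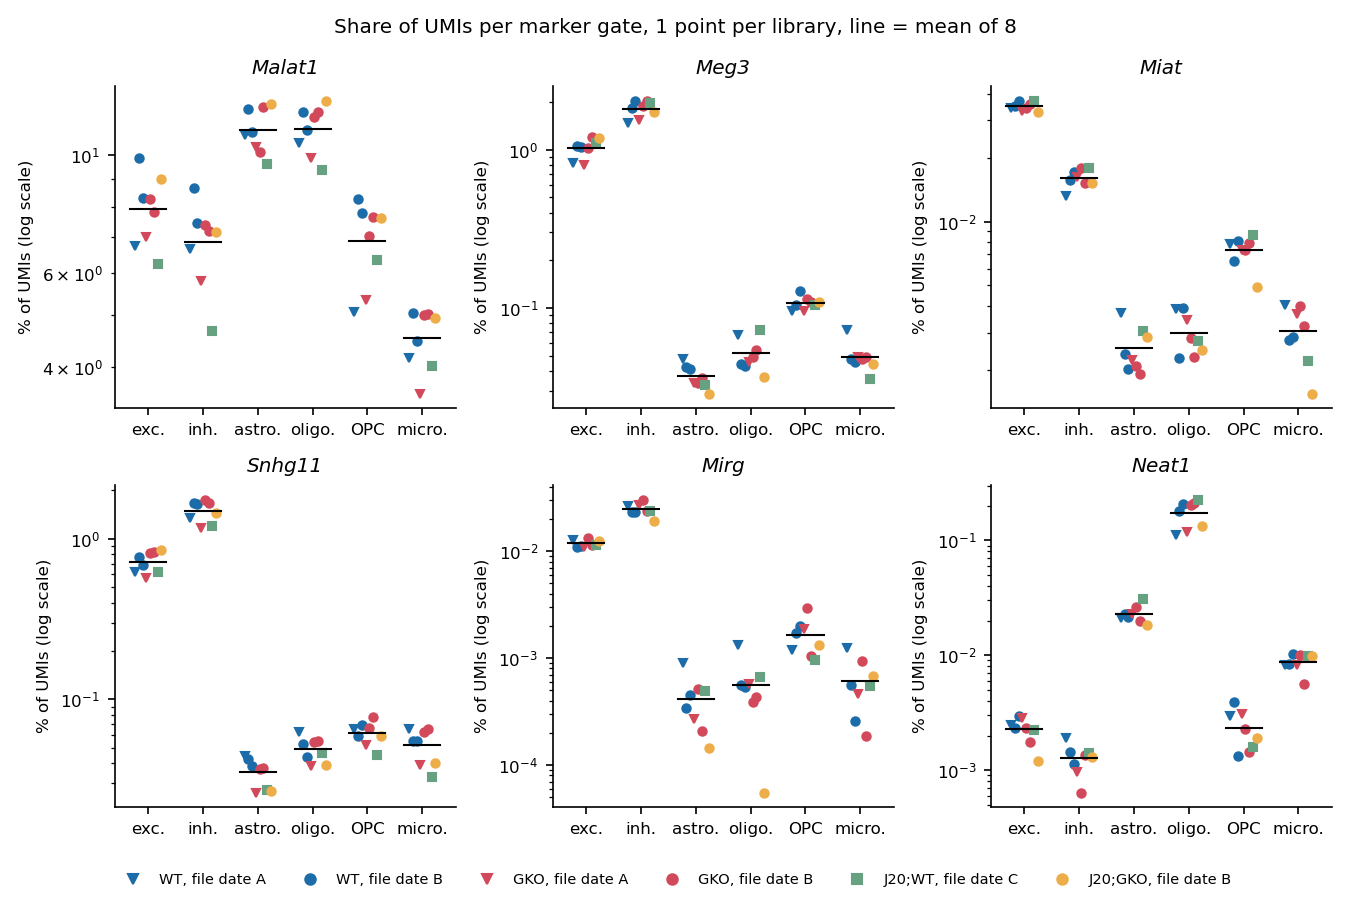
Share of UMIs, in percent on a log axis, of each of the 6 lncRNAs in the 6 main gates, with 1 point per library, a bar at the mean of the 8 libraries and a marker shape for the date. Malat1 stays between 3.56% and 12.7% in every gate, Meg3, Snhg11 and Mirg are highest in inhibitory neurons, Miat in excitatory neurons and Neat1 in oligodendrocytes.

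The levels in glia were set beside 7 genes of neurons, each as a percent of its level in excitatory neurons on CPM. In astrocytes Meg3 was at 3.70%, Mirg at 3.47%, Snhg11 at 4.97% and Miat at 7.27%. Beside them were Nrg3, a growth factor gene, at 2.82%, the synaptic vesicle gene Syt1 at 3.46%, Rbfox3, which encodes the neuronal nuclear antigen NeuN, at 3.53%, the kinase gene Camk2a at 5.74%, the synaptic gene Snap25 at 6.42%, Slc17a7, a glutamate transporter gene, at 9.45% and the glutamate receptor gene Grin2b at 13.1%. The 4 lncRNAs thus lay within the spread of these genes in astrocytes. Camk2a and Slc17a7 are markers of the excitatory gate, so their levels depend on the gating itself. In OPCs Snhg11 was at 8.67%, Meg3 at 10.6%, Mirg at 13.8% and Miat at 20.9%, beside 2.71% for Rbfox3, 2.97% for Grin2b, 4.11% for Camk2a, 4.40% for Syt1, 9.04% for Slc17a7, 25.2% for Snap25 and 33.1% for Nrg3. How much of these counts came from free RNA in the droplets was not tested.

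The share of nuclei with a UMI gave a like picture. Unthinned, Meg3 was found in 99.6% of excitatory neurons and 69.2% of astrocytes, at median depths of 10007 and 3696 UMIs. After every nucleus was thinned to 1000 UMIs, the values were 97.1% and 27.4%, with 733 excitatory and 81 astrocyte nuclei left out as too shallow. Neat1 was found in 87.8% of oligodendrocytes and 12.8% of excitatory neurons unthinned, and in 73.3% and 2.24% after thinning, with 124 oligodendrocytes left out. Miat was found in 85.1% of excitatory neurons unthinned and 27.4% thinned, against 9.09% and 2.47% of astrocytes. Malat1 was found in every thinned nucleus of the 6 gates.

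A test across all genes compared the 2 neuron gates with the 4 glia gates on summed counts, with the mouse as a block (edgeR quasi-likelihood test, Benjamini-Hochberg adjustment). Calls needed a change of more than 0.3 on the log2 scale besides an adjusted p below 0.05. 5 of the 6 lncRNAs were called, beside 67.6% of the 13576 genes tested, 4751 higher and 4420 lower in neurons. With nuclei thinned to 1000 UMIs 5403 genes were called in place of 9171, and the same 5 lncRNAs were called. The log2 fold change was 4.68 ± 0.07 (SE) for Meg3 (adjusted p = 1.1e-49), 4.65 ± 0.09 for Mirg (2.4e-41), 4.50 ± 0.06 for Snhg11 (8.1e-53) and 2.79 ± 0.06 for Miat (2.5e-42). It was -3.25 ± 0.13 for Neat1 (adjusted p = 6.1e-27) and -0.03 ± 0.05 for Malat1 (adjusted p = 0.657). Meg3, Mirg and Snhg11 ranked 47, 51 and 78 among the 13576 genes by log2 fold change. The largest changes of all were Gm11844 at 7.11 and 4933413L06Rik at 6.08, both of unknown function, and Cd9, a tetraspanin gene, at -5.98.

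Each gate was also set against the mean of the others in the same edgeR fit. In excitatory neurons 5 of the 6 lncRNAs were called (4 higher and Neat1 lower), beside 65.1% of genes, and in inhibitory neurons the same 5, beside 61.5%. All 6 were called in astrocytes, beside 61% of genes, and in oligodendrocytes, beside 63.8%, with Malat1 and Neat1 higher and the other 4 lower. In OPCs 3 were called, all lower, beside 49.8% of genes, and in microglia 5, all lower, beside 69.1%. The largest was Neat1 in oligodendrocytes, at a log2 fold change of 5.44 ± 0.09 (adjusted p = 3.2e-42). Malat1 was at 0.76 ± 0.07 in oligodendrocytes, 0.70 ± 0.07 in astrocytes and -1.17 ± 0.08 in microglia. Calls of this kind covered between 49.8% and 69.1% of all genes, so a count of members is no result about the members.

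Within the excitatory gate, nuclei were split by markers of hippocampal subfields, and Meg3, Snhg11 and Mirg were low in the dentate gyrus. There were 4695 dentate granule nuclei, 3064 of CA1, 1575 of CA3 and 1467 of subiculum or cortex, and 3884 had no subfield. Meg3 in dentate granule neurons was 0.270%, 0.309% and 0.328% in WT, 0.242%, 0.325% and 0.316% in GKO, 0.393% in J20;WT and 0.548% in J20;GKO. Both J20 libraries, of 1 mouse each, were above all WT and GKO libraries, which overlapped. The share of all genes outside that range was not computed for subfields. Over pairs of tested gene and main gate it was 44.7% for J20;WT and 32% for J20;GKO. The mean was 0.341% ± 0.0944 in dentate granule neurons, 1.17% ± 0.159 in CA3, 1.29% ± 0.169 in CA1 and 1.43% ± 0.219 in subiculum or cortex. CA3 was above dentate granule neurons by 0.828 ± 0.132 points in 8 of 8 libraries (exact sign-flip p = 0.00781, adjusted p = 0.0201 over 18 comparisons). Snhg11 took 0.168% ± 0.0342 in dentate granule neurons and 0.911% ± 0.117 in CA3, and Mirg 0.00386% ± 0.000738 and 0.0137% ± 0.00125, also in 8 of 8 libraries (exact p = 0.00781, adjusted p = 0.0201).

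Malat1 and Miat were spread otherwise. Malat1 took 9.16% ± 1.36 in CA3, 8.80% ± 1.69 in dentate granule neurons, 8.11% ± 1.10 in CA1 and 5.48% ± 1.04 in subiculum or cortex, which was below CA1 in 8 of 8 libraries (exact p = 0.00781, adjusted p = 0.0201). Miat was highest in CA1, at 0.0412% ± 0.00210, and its lowest mean was in dentate granule neurons, at 0.0297% ± 0.00333. CA3, at 0.0316%, did not differ from dentate granule neurons beyond the spread (5 of 8 libraries higher, exact sign-flip p = 0.266). Neat1 did not differ beyond its spread between any neighbouring subfields (lowest exact p = 0.609). An edgeR contrast of dentate granule neurons with the other 3 subfields, added after the shares had been seen, called 3 of the 6 lncRNAs, beside 45.9% of 13972 genes. Its log2 fold changes were -2.54 ± 0.05 for Snhg11 (adjusted p = 1.7e-28), -1.99 ± 0.06 for Mirg (7.2e-25) and -1.95 ± 0.06 for Meg3 (3.5e-23). The largest changes were Gm48727 at -6.28, Samd5 at -5.70 and Gm48749 at -5.46.

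**Figure D2:**
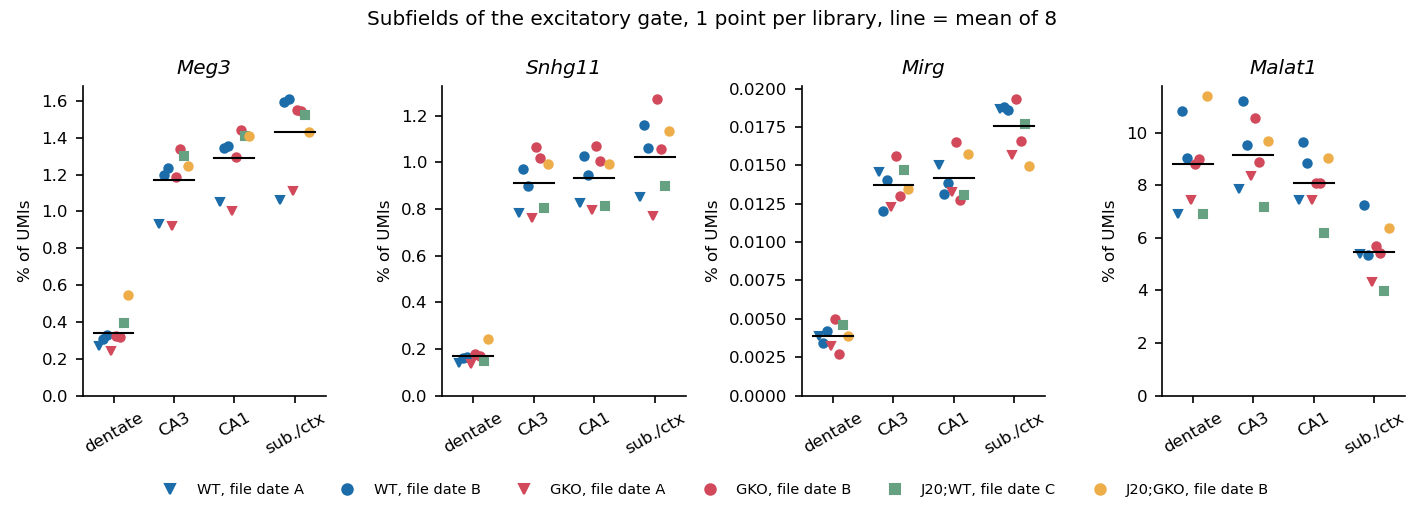
Share of UMIs, in percent, of Meg3, Snhg11, Mirg and Malat1 in 4 subfields of the excitatory gate, with 1 point per library and a bar at the mean. Meg3, Snhg11 and Mirg sit lowest in dentate granule neurons in all 8 libraries.

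The relation to UMIs per nucleus was read within each library and gate. Nuclei were put into 5 bins by depth, and the log of the lncRNA's UMIs was fitted on the log of all UMIs; a slope of 1 means that the share does not change with depth. Of 36 pairs of lncRNA and gate, 25 had enough UMIs for a slope in every library. 6 slopes were above 1 and 2 below 1 at an adjusted p under 0.05 (exact sign-flip permutation test over 8 libraries, adjusted over 25), and 17 did not pass. With 10 bins 4 passed in place of 8, and with the stricter gate 11. Slopes of other genes were not computed, so nothing particular to these RNAs is read from the counts. The points of a slope share a library and a gate, and the total on the x axis includes the lncRNA.

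Over the whole excitatory gate, which mixes subfields, deeper nuclei held larger shares of 4 of the neuronal RNAs. Within dentate granule neurons the slopes of Meg3 and Snhg11 were below 1, at 0.878 and 0.555. The slope of Meg3 was 1.44 ± 0.189 (SD over libraries), above 1 in 8 of 8 libraries (exact p = 0.00781, adjusted p = 0.0391), and its share went from 0.631% in the bin with a mean of 3565 UMIs per nucleus to 1.27% in that with 23190. Snhg11 had a slope of 1.40 ± 0.191 and Mirg one of 1.36 ± 0.159, with the same p-values, and Miat 1.18 ± 0.0988 (exact p = 0.0156, adjusted p = 0.0488). Malat1, by contrast, was at 0.965 ± 0.0663 (exact p = 0.188), with 8.18% in the shallowest and 7.84% in the deepest bin. In inhibitory neurons the order turned: Malat1 had a slope of 1.32 ± 0.139 (exact p = 0.00781, adjusted p = 0.0391), from 5.05% to 8.27%, and Meg3 one of 1.10 ± 0.0950 (exact p = 0.0156, adjusted p = 0.0488). Below 1 were Meg3 in OPCs, at 0.705 ± 0.138 (exact p = 0.00781, adjusted p = 0.0391), and Snhg11 in microglia, at 0.517 ± 0.354 (exact p = 0.0156, adjusted p = 0.0488). These 2 rest on few counts, with means of 4.86 and 1.05 UMIs per nucleus. Library slopes of Snhg11 in microglia ran from -0.0153 to 1.00. The part of free RNA in them was not tested. With any 1 library left out, or both of batch A, 0 slopes passed; the smallest exact p that 7 libraries allow is 0.0156, and that 6 allow is 0.0312.

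The excitatory gate mixes subfields of different depth and Meg3 level. Dentate granule nuclei had a median of 7824 UMIs, CA1 nuclei 12517, subiculum or cortex nuclei 11162 and CA3 nuclei 16339. Within dentate granule neurons the slope of Meg3 was 0.878 ± 0.0668, below 1 in 8 of 8 libraries (exact p = 0.00781, adjusted p = 0.0179 over 16), and that of Snhg11 was 0.555 ± 0.164 (same p-values). Within CA3 they were 1.22 ± 0.171 and 1.24 ± 0.205, above 1 in 8 of 8 libraries (exact p = 0.00781, adjusted p = 0.0179). Within CA1 they were 1.08 ± 0.0517 (exact p = 0.0156, adjusted p = 0.0312) and 0.934 ± 0.0806 (exact p = 0.0625). Within subiculum or cortex they were 1.13 ± 0.0826, above 1 in 8 of 8 libraries (exact p = 0.00781, adjusted p = 0.0179), and 0.960 ± 0.0646 (exact p = 0.148). Every subfield slope of Meg3 and Snhg11 was below that of the whole gate. Miat was at 1.44 ± 0.137 in dentate granule neurons, above the 1.18 of the gate, and at 0.976 in CA1, 1.04 in CA3 and 1.09 in subiculum or cortex. Malat1 was at 1.10 ± 0.0621 in CA3, above the 0.965 of the gate, and at 1.06 in CA1, 0.990 in subiculum or cortex and 0.854 in dentate granule neurons. Of the slopes of Miat and Malat1, those of Miat in dentate granule neurons and Malat1 in CA3 passed (exact p = 0.00781, adjusted p = 0.0179 for each). These slopes were added after the shares had been seen, and slopes of Mirg and Neat1 within subfields were not analysed here.

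**Figure D3:**
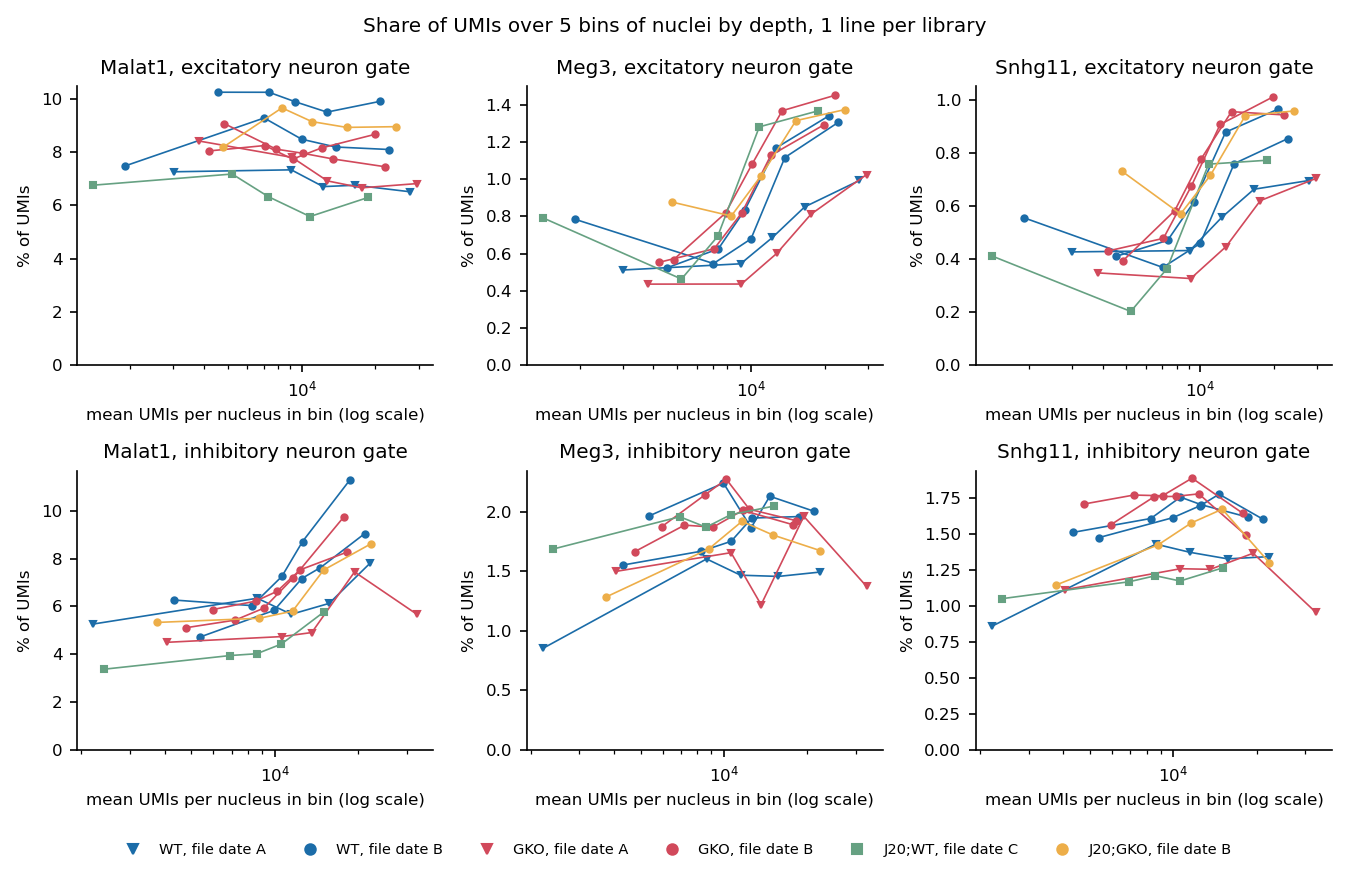
Share of UMIs, in percent, of Malat1, Meg3 and Snhg11 in the 2 neuron gates, against the mean UMIs per nucleus (log axis) of 5 bins of nuclei, with 1 line per library. In excitatory neurons the deepest bins hold the largest shares of Meg3 and Snhg11, and in inhibitory neurons Malat1 is larger in the deepest than in the shallowest bin of every library.

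The libraries labelled GKO did not differ from WT in any of these RNAs by the tests run. Over 6 main gates the edgeR log2 fold changes of the lncRNAs ran from -0.80 to 0.27 in 34 fits, 14 above 0 and 20 below, with standard errors between 0.09 and 0.43. The lowest, Mirg in oligodendrocytes, rests on 44 UMIs in WT 1 and between 7 and 16 in each of the other WT and GKO libraries, and went from -1.04 to -0.18 with 1 library left out. The lowest unadjusted p was 0.0269, for Meg3 in astrocytes, and the lowest adjusted p was 0.999. 0 of the 6 lncRNAs were called in any gate or over all nuclei, beside 0% of all genes by edgeR and 0 by DESeq2. At an unadjusted p under 0.05 edgeR had 187 genes in excitatory neurons, 235 in inhibitory neurons, 236 in astrocytes, 161 in oligodendrocytes, 209 in OPCs, 210 in microglia and 254 over all nuclei. With the replicate number as a block, 7 genes passed in OPCs and 1 over all nuclei, none of them a lncRNA described here.

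In excitatory neurons the log2 fold change was -0.09 ± 0.17 for Malat1, 0.08 ± 0.17 for Meg3, 0.10 ± 0.16 for Snhg11, -0.02 ± 0.09 for Miat, 0.04 ± 0.10 for Mirg and -0.13 ± 0.18 for Neat1. Shares of WT and GKO libraries did not overlap in 2 of 36 pairs of lncRNA and gate (5.56%), both in astrocytes. Over all pairs of tested gene and main gate the share without overlap was 6.56%, near that of the 36 pairs. In astrocytes alone 2 of the 6 lncRNAs did not overlap, beside 7.5% of the genes tested there. This difference in astrocytes was not tested. For Meg3 in astrocytes the WT libraries had 0.0476%, 0.0422% and 0.0410% and those labelled GKO 0.0337%, 0.0337% and 0.0358%. For Snhg11 the WT libraries had 0.0446%, 0.0427% and 0.0387%, against 0.0263%, 0.0371% and 0.0376%. The 3 WT values were above the 3 GKO values in each case (exact permutation p = 0.1, 2-sided, the smallest that 3 against 3 allows). On nuclei thinned to 1000 UMIs the groups overlapped for both RNAs: Meg3 was 0.0420%, 0.0311% and 0.0458% in WT libraries against 0.0446%, 0.0312% and 0.0325%, and Snhg11 0.0420%, 0.0362% and 0.0390% against 0.0297%, 0.0399% and 0.0381%. With the stricter gate the lowest unadjusted p of the lncRNAs in astrocytes was 0.295 by edgeR. It was 0.0376 with nuclei of at least 1000 UMIs, 0.00561 with replicates as a block and 0.00395 with a batch term for the dates, and the lowest adjusted p of these lncRNAs was 0.788. The signs held with any 1 library left out, where the log2 fold change ran from -0.40 to -0.27 for Meg3 and from -0.41 to -0.17 for Snhg11. No difference in the genotype effect between neurons and glia was called either. The interaction called 0 of 16801 genes by edgeR, with 408 at an unadjusted p under 0.05. It was run in edgeR alone and on sums over all neurons and all glia, so that the mix of gates enters it. Its log2 values were 0.18 ± 0.21 for Meg3, 0.25 ± 0.18 for Snhg11, 0.46 ± 0.25 for Mirg and -0.02 ± 0.18 for Malat1.

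**Figure D4:**
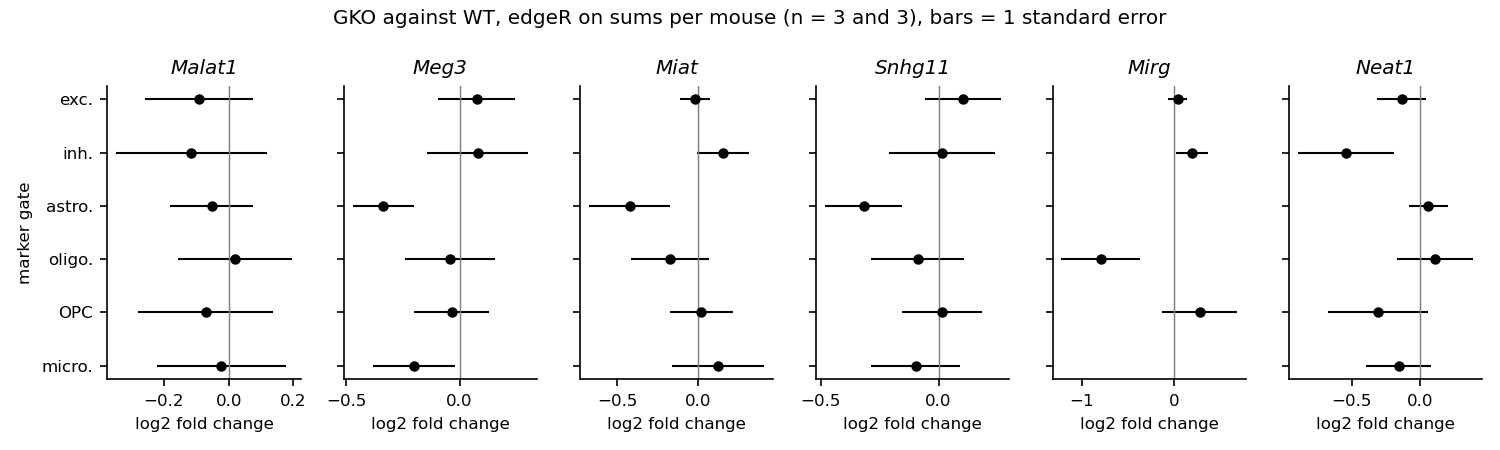
Log2 fold change of the libraries labelled GKO against WT for each lncRNA and main gate (edgeR, 3 and 3 mice), with bars of 1 standard error and an axis of its own for each lncRNA. The points lie on either side of 0, and 2 pairs of lncRNA and gate had too few counts to be tested.

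Shares were also set out by the dates of the deposited data. Both batch A libraries lay outside the range of the 4 batch B libraries of WT and GKO in 12 of 36 pairs of lncRNA and gate, below it in 11 and above it in 1. Over all pairs of tested gene and main gate 33.3% lay outside, and 19.7% below. The count outside is thus the same share as for all genes, while the 11 of 36 below are a larger share. That difference was not tested. For Malat1 in excitatory neurons the means were 6.87% in batch A and 8.58% in batch B, for Meg3 there 0.809% and 1.08%, and for Neat1 in oligodendrocytes 0.115% and 0.201%. J20;GKO, high in Xist and of batch B, had 9.01% Malat1 and 1.19% Meg3 in excitatory neurons, near the batch B means, and 0.133% Neat1 in oligodendrocytes, nearer the batch A mean. The part of date or sex in these values was not tested.

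The J20 libraries were compared as single mice, with 95% intervals that cover counting error only. Malat1 was higher in J20;GKO in all 6 gates. In the excitatory gate J20;WT had 6.24% (interval 6.23 to 6.26), and the log2 ratio of J20;GKO, with 9.01%, was 0.53. For Neat1 in oligodendrocytes J20;WT had 0.226% (0.217 to 0.235) against 0.133% (0.128 to 0.138), with a log2 ratio of -0.77. Of 36 values for each J20 library, 14 of J20;WT and 14 of J20;GKO lay outside the range of the 6 WT and GKO libraries. Over all pairs of tested gene and gate the share outside was 44.7% for J20;WT and 32% for J20;GKO. Among the lncRNA values outside was Malat1 of J20;WT in 4 gates. The Gsap genotype, the date of the deposited data and the Xist level all differ between the 2 mice and cannot be told apart.

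Genes whose levels were most like each lncRNA were found over 48 sums, 1 per library and main gate, by Pearson's r of log2(CPM + 1) among 10945 genes. These points share libraries and gates, so r is a description. Meg3 was most like Snhg11 (r = 0.987), Galntl6 (0.986), a glycosyltransferase gene of neurons, and Gm26905 (0.983). Snhg11 was most like Meg3, Ube3a (0.985), the imprinted ubiquitin ligase gene of Angelman syndrome, and Galntl6 (0.985). Mirg was most like Meg3 (0.977), Mir124a-1hg (0.972), the host of a neuronal microRNA, and Cacna1b (0.972), a presynaptic calcium channel gene. Miat was most like Add2 (0.972), Ryr2 (0.972) and Erc2 (0.970), which encode a cytoskeletal protein, a calcium release channel and a protein of the presynaptic active zone. Malat1 was most like Srebf2 (0.886), the cholesterol regulator, Kif1b (0.873), a motor protein gene, and Gnao1 (0.871), a G protein gene. Neat1 was most like Mettl7a1 (0.948), Ttyh2 (0.945) and Clasp2 (0.937), a microtubule protein gene. With the mean of each gate taken out, most of these r values were far lower. For Malat1 they were 0.259 with Srebf2, -0.119 with Kif1b and -0.101 with Gnao1, and for Neat1 0.0401 with Mettl7a1, 0.516 with Ttyh2 and 0.0656 with Clasp2. Meg3 kept 0.647 with Snhg11, 0.311 with Galntl6 and 0.291 with Gm26905, and Snhg11 kept 0.593 with Ube3a and 0.128 with Galntl6. For Mirg they were 0.504 with Meg3, 0.607 with Mir124a-1hg and 0.457 with Cacna1b, and for Miat 0.387 with Add2, 0.404 with Ryr2 and 0.446 with Erc2.

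The imprinted domain around Meg3 was described by level. Dlk1, a paternally expressed gene upstream of Meg3, was near the floor at 2.24 ± 0.812 CPM in the excitatory, 2.08 ± 4.81 in the inhibitory and 4.60 ± 5.18 in the astrocyte gate. Rtl1, a gene derived from a retrotransposon 48.2 kb downstream on the opposite strand, was at 22.2 ± 2.70 CPM in excitatory and 44.6 ± 3.02 in inhibitory neurons. B830012L14Rik, a noncoding RNA at 155 kb on the strand of Meg3, was at 24.8 ± 3.54 and 37.3 ± 5.92 CPM, and Mirg, at 189 kb, at 118 ± 9.03 and 246 ± 33.2 CPM. Dio3, which inactivates thyroid hormone, stood at 738 kb and was at 1.28 ± 0.709 CPM in excitatory neurons. Rtl1, B830012L14Rik and Mirg had higher means in inhibitory than in excitatory neurons. In glia they were highest in OPCs, at 3.97, 2.06 and 16.3 CPM, and Mirg was between 4.15 and 6.11 CPM in the other 3 glia gates. Gm26906 overlaps 3096 bases of Meg3 on the opposite strand and was at 14.1 and 19.1 CPM, and whether reads of the 2 strands were kept apart there is not given in the sources used here.

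**Figure D5:**
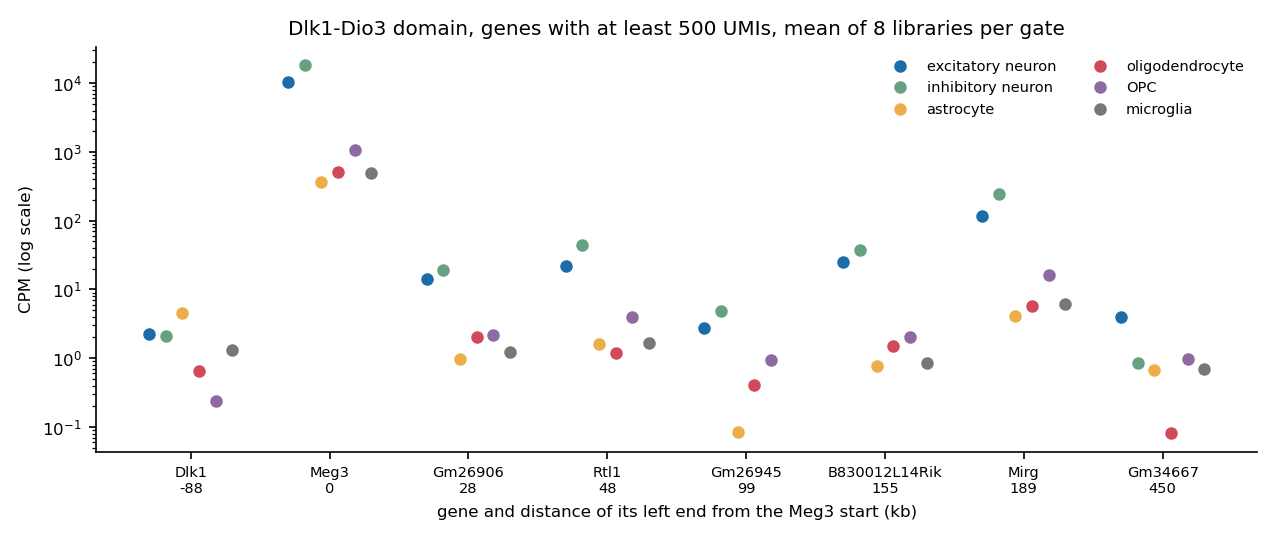
Mean level, in CPM on a log axis, of genes of the Dlk1-Dio3 domain with at least 500 UMIs in the 6 main gates, in order of the distance in kb of their left end from the start of Meg3. Points at 0 CPM are not drawn, and the neuron gates lie above the glia gates from Meg3 to Mirg.

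Lists of related genes were described by counts in neurons against glia, beside 67.6% of all 13576 genes tested that were called, 4751 higher and 4420 lower, with a median log2 fold change of 0.001. Of the Dlk1-Dio3 domain and its flanks, 6 of 9 genes were tested, 2 were higher in neurons and 1 lower, and the median was 0.18. Rtl1 was at 4.04 and Begain, a synaptic protein gene, at 1.91, while Yy1, a zinc finger factor that binds imprinted regions, was at -0.45. By summed UMIs Ppp2r5c, a phosphatase subunit gene, led this list, at 171 CPM in excitatory neurons. Of the 7 neighbours of Neat1 and Malat1, all tested, 0 were higher and 3 lower in neurons by edgeR (6 at an unadjusted p under 0.05), with a median of -0.29. Slc25a45, a mitochondrial carrier gene, was at -3.74, Frmd8 at -2.42 and Map3k11, a kinase gene, at -1.13. Dpf2, with the most UMIs of this list, was at -0.29.

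Of 21 nuclear speckle protein genes 2 were higher and 6 lower in neurons, with a median of -0.07. Son, a scaffold protein of speckles, was at -1.18 and at 2285 ± 390 CPM in astrocytes against 608 ± 110 in excitatory neurons, while Rnps1 was at 0.77. Of 12 tested paraspeckle protein genes, 0 were higher by edgeR (3 at an unadjusted p under 0.05 in either direction) and 1 lower, Nono at -0.43, with a median of -0.01; Sfpq was at 0.01. Of 3 splicing factors that bind Miat, Celf3 was higher in neurons at 3.22, Qk lower at -2.77 and Sf1 at -0.26. The list of other lncRNAs and host genes held 35 symbols, of which 22 had counts and 20 were tested. Of these 20, 10 were higher and 5 lower, with a median of 0.32. Among the higher ones were A330008L17Rik at 4.56, Ftx, a neighbour of Xist, at 2.06 and Kcnq1ot1, an imprinted antisense RNA, at 1.32, and the lower ones were Tug1 at -0.89, Tsix at -0.67, Jpx at -0.63, Xist at -0.47 and 1700020I14Rik at -0.39. No gene of any list was called between WT and the libraries labelled GKO by edgeR in any gate. In excitatory neurons 0 listed genes were at an unadjusted p under 0.05, and the list medians there lay between -0.03 and 0.05, beside 0.004 over all 17795 genes. Other gates had medians further from 0. In oligodendrocytes that of the nuclear speckle list was 0.13, beside -0.0008 over all genes. For the neighbours of Neat1 and Malat1 it was 0.12 in oligodendrocytes and -0.10 in inhibitory neurons.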

How the data were processed

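Counting of reads into UMIs per gene was done by the authors with Cell Ranger on mm10, and the deposited counts were used as they are. Nuclei with over 5.0% mitochondrial UMIs, under 200 genes or over 7500 genes were left out. The members, the gene lists and the named genes were chosen with earlier results of these data known. Genes were named if they were members, markers, list genes with the most UMIs or the largest changes, the closest in level to a member, or genes of the domain around Meg3.

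Gates used marker UMIs per 10000, with thresholds of 20 (excitatory), 15 (inhibitory), 60 (astrocyte), 80 (oligodendrocyte), 40 (OPC) and 50 (microglia), at least 2 markers detected and a ratio of 2 to the next class. The thresholds were set after the counts had been seen, and so was the leaving out of the markers Nxph1, Adarb2 and Gpc5. Counts were summed per mouse and gate. edgeR 4.0.16 (quasi-likelihood, robust, TMM factors) and DESeq2 1.42.0 were run in R 4.3.3, with Benjamini-Hochberg adjustment over all genes tested in a comparison. The standard error was the size of the log2 fold change divided by the square root of F. Exact tests were 2-sided. Python 3.11.15, numpy 2.4.6, scipy 1.17.1, pandas 2.3.3 and matplotlib 3.10.9 served for the rest, and GENCODE M21 for annotation.

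The replicate numbers in the sample titles could pair WT with GKO. Over 19193 genes, correlations of libraries with the same number were 0.570, 0.185 and 0.219, and those of other pairs were 0.216, 0.303, -0.388, -0.344, -0.312 and -0.407. The titles alone give the pairing, and the fits were run without it and, as another setting, with it as a block. Other settings were a stricter gate, thinning, other denominators, 10 bins, a term for date, library size alone, genes with any UMI, DESeq2 and leaving out libraries.

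With 3 mice per group, small differences between WT and GKO could not be seen. Date and Xist level differ within groups, the J20 groups have 1 mouse each, and free RNA from other cells was not measured. Exons and introns cannot be told apart in the counts, and lncRNA levels were not compared per length. Values of 2 genes used for comparison are not reported here.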

Additional observations from a re-analysis of the deposited data

Results flagged for a closer look

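Some values came from nuclei outside the 6 main gates. Malat1 took 12.38% of UMIs in mural cells or fibroblasts, and Neat1 took 0.0291% there and 0.04854% in choroid plexus cells. In Cajal-Retzius cells Snhg11 took 1.343% and Mirg 0.01283%. These gates are small, and no test was run on them. Nuclei of the mural cell or fibroblast gate had a median of 57.7 astrocyte marker UMIs per 10000, near the astrocyte threshold of 60. How much of their Malat1 and Neat1 was astrocyte RNA was not tested. The choroid plexus mean covers 5 libraries, with 2 nuclei in WT 2.

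In nuclei that were not gated Meg3 took 1.147%, Miat 0.01731%, Snhg11 0.9137% and Mirg 0.01566% of UMIs. In nuclei left out by the filter Meg3 took 1.124% and Mirg 0.01355%, each above the share in kept nuclei in 8 of 8 libraries. The kept means were 0.925% and 0.0110%. What these nuclei are was not tested.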

How the results depend on the processing

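Of 907 values from other settings, 829 kept their call, 16 were weaker, 9 stronger, 37 moved and 16 reversed. Of 792 values with 1 library left out, 674 kept it, 64 were weaker, 8 moved and 46 reversed. The 64 weaker and 8 moved values are the 8 called slopes and their count, and 7 libraries allow no exact p below 0.0156, which limits what can pass after adjustment. The cause was not tested for the others. No lncRNA passed between WT and the libraries labelled GKO in any of 97 fits other than the main ones. These fits count each other setting once per gate and, where run, once over all nuclei. Fits with 1 library left out are among them.

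With the lncRNAs outside the denominator, percent of UMIs was 12.7 for Malat1 in the oligodendrocyte gate and 0.0387 for Miat in the excitatory neuron gate. With nuclei thinned to 1000 UMIs, Miat in the excitatory neuron gate was 0.0332. With the stricter marker gate Snhg11 in the oligodendrocyte gate had a log2 ratio of 0.38 between the J20 libraries. The main gate gave -0.24, so the sign turned.

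The relation to UMIs per nucleus passed in 8 pairs, in 4 with 10 bins, in 0 without batch A, where 6 libraries allow no exact p under 0.0312, and in 0 to 0 with 1 library left out. The slope against UMIs per nucleus crossed 1 as follows. With depth outside the lncRNAs it was 0.954 for Malat1 in the astrocyte gate and 0.942 in the OPC gate. In nuclei with at least 1000 UMIs these were 0.995 and 0.988, and Miat in the inhibitory neuron gate was 0.994. With the stricter marker gate Malat1 in the OPC gate was 0.979. With 10 bins Malat1 in the excitatory neuron gate was 1.02 and Neat1 there 0.913. Without batch A Meg3 in the oligodendrocyte gate was 1.01 and Miat in the inhibitory neuron gate 0.967. With 1 library left out the slope ran from 0.974 to 1.03 for Malat1 in the OPC gate, 0.954 to 1.08 for Miat in the inhibitory neuron gate and 0.995 to 1.12 for Neat1 in the excitatory neuron gate.

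GKO against WT, genes past the threshold: 11 in the inhibitory neuron gate and 4 in the astrocyte gate with genes with any UMI, and 1 in the astrocyte gate and 3 in the OPC gate with a file date batch term. With the replicate block, which uses the pairing, 7 genes passed in the OPC gate and 1 over all nuclei, and it changed no other call. With the replicate block the value of "GKO against WT, log2 fold change, Snhg11, OPC" was -0.00299. With library size alone it was -0.0275 for Snhg11 in inhibitory neuron and -0.00315 for "GKO against WT, log2 fold change, Malat1, oligodendrocyte", and by DESeq2 0.00227 for Miat over all nuclei. For neurons against glia 5403 genes passed with nuclei thinned to 1000 UMIs, and Malat1 was at 0.0262 with the 6 WT and GKO libraries.

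With 1 library left out, GKO against WT log2 fold changes crossed 0. In excitatory neuron they ran from -0.22 to 0.0612 for Malat1, -0.0736 to 0.20 for Meg3, -0.0501 to 0.00337 for Miat, -0.0201 to 0.12 for Mirg and -0.34 to 0.0362 for Neat1. In inhibitory neuron the values ran from -0.0167 to 0.17 for Meg3 and -0.0661 to 0.13 for Snhg11. In astrocyte the ranges went from -0.15 to 0.0162 for Malat1 and -0.0484 to 0.15 for Neat1. In oligodendrocyte the fits ran from -0.0336 to 0.10 for Malat1, -0.16 to 0.20 for Meg3, -0.21 to 0.0583 for Snhg11 and -0.11 to 0.33 for Neat1. In OPC the changes went from -0.25 to 0.0583 for Malat1, -0.11 to 0.0787 for Meg3, -0.0766 to 0.0813 for Miat, -0.12 to 0.13 for Snhg11 and -0.0797 to 0.59 for Mirg. In microglia they went from -0.11 to 0.12 for Malat1, -0.31 to 0.0412 for Meg3, -0.23 to 0.0976 for Snhg11 and -0.32 to 0.0347 for Neat1. Over all nuclei they ran from -0.19 to 0.0453 for Malat1, -0.0407 to 0.28 for Meg3 and -0.0578 to 0.0474 for Miat.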
